A study of Homo sapiens with 4 samples.

Results

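The genes described here are 10 genes of the Wnt pathway, measured in clones of A2780s, an established human epithelial ovarian cancer (EOC) cell line. Of these, 6 encode secreted antagonists of Wnt signaling (DKK1, DKK3, SFRP1, SFRP4, FRZB and WIF1) and 4 encode transcriptional targets and feedback factors (AXIN2, LEF1, TCF7 and NKD1). A member is every probe, control spots left out, that the scanner files name by 1 of these 10 symbols, which gave 21 probes for 10 of the 29123 gene names on the array. The 10 genes were chosen by a measured value, the log2 ratio of DKK3, which stood far apart between the KO groups, so DKK3's ratios, and the differences of all 10 genes between the KO groups, are given as a description without a test.

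The study asked what loss of GALNT3, alone or with GALNT6, does to EOC cells. GALNT3 and GALNT6 encode related enzymes that add the first sugar of mucin-type O-glycans. RNA of 2 GALNT3 KO clones (CRISPR-Cas9 against GALNT3, with a homology-directed repair plasmid) and of 2 GALNT3/T6 KO clones (GALNT3 KO clones that also received shRNA against GALNT6 from a lentiviral vector with puromycin resistance) was labelled with Cy5. Each clone was hybridized on an array of its own against Cy3-labelled RNA from a mock-transfected A2780s clone (Ctrl), and the labels give no dye swap. The methods speak of cRNA in the reverse color for the Ctrl, which does not settle whether any array was swapped. Directions here follow the labels, and on an array with exchanged dyes every value would change sign. By their labels both KO groups carry the GALNT3 targeting, while the shRNA, its transduction and its selection come with the GALNT3/T6 KO group and cannot be told apart there. Which GALNT3 KO clone gave rise to which double KO clone, and whether 1 Ctrl clone served all arrays, is not given in the sources used here. Each KO clone is 1 replicate (n = 2 per group). Each value is the log2 of the KO signal over the Ctrl signal, after background correction and loess, and a gene is called at a limma adjusted p of at most 0.05 (Benjamini-Hochberg over the 27198 genes tested).

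All 4 arrays lay on 1 slide, with 45015 spots each, of which 1639 were control spots. Of the other spots, the share that Agilent's software put well above background ran from 86.9% to 93.8% by channel, and saturation touched 0 spots. GALNT6 was lower than Ctrl on all 4 arrays, at -0.47 and -0.38 in GALNT3 KO and -0.66 and -0.69 on the GALNT3/T6-labelled arrays. On the GALNT3 KO arrays GALNT3 did not stand well above background in the KO or the Ctrl channel, so it checks nothing there. It stood at 4.80 and 5.08 on the GALNT3/T6-labelled arrays, with the KO channel above Ctrl (adjusted p = 9.09e-05 from limma). This goes against the label, and that group is therefore called the GALNT3/T6-labelled arrays throughout. GALNT3 had a channel well above background in that group alone, which let it into the test, so its p is not independent of that filter. The Ctrl channel was well above background on all 4 arrays for 9 of 9 ovarian epithelial markers, and also for 4 of 4 fibroblast, 3 of 3 leukocyte and 2 of 3 endothelial markers (not PECAM1), so on these arrays the measure did not tell the labelled cell type from the others. On the GALNT3/T6-labelled arrays 7 of the 9 epithelial markers rose, among them KRT18 (5.68) and KRT19 (4.81), where 24.8% of all genes were called higher. Markers of other cell types moved there as well, with COL1A1 (1.98), CD68 (1.70) and VWF (1.32) higher and PDGFRA (-1.94), LUM (-1.19) and CD3E (-0.36) lower. The part of these markers in the results below was not tested.

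Wnt proteins are secreted ligands that bind Frizzled receptors together with the co-receptors LRP5 and LRP6. In the canonical branch this stops a cytoplasmic complex of Axin, APC and kinases from marking β-catenin for breakdown, and β-catenin then works with TCF/LEF factors on target genes. Secreted antagonists act outside the cell. SFRP proteins, FRZB and WIF1 bind the ligands, whereas DKK1 binds the LRP co-receptors, and AXIN2 and NKD1 dampen the signal inside the cell after being switched on by it. In ovarian and other carcinomas several of these antagonists are known to be silenced by promoter methylation.

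DKK3 belongs to the Dickkopf family by sequence, although it is a divergent member whose action on the pathway varies with the cell type. On its brightest probe, DKK3 stood at -1.29 and -1.33 on the GALNT3 KO arrays, a mean of -1.31 ± 0.03 (SD, n = 2). On the GALNT3/T6-labelled arrays it stood at 5.27 and 5.20, a mean of 5.23 ± 0.05 (SD, n = 2). It was thus below Ctrl on both arrays of the first group and above Ctrl on both of the second, and the groups did not overlap. In folds this is 2.48-fold lower and 37.6-fold higher than Ctrl. The difference between the groups was 6.54 on the log2 scale (SE 0.11), or 93.3-fold, which ranked 5 by size among the 27198 genes. These values chose the gene and support nothing by themselves.

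The array carries 5 probes under the name DKK3, and their sequences are shown because they do not measure the same transcript. The first 30 of the 60 bases of each are given 5′ to 3′, as the scanner files list them, with the hg19 position of the whole probe on chromosome 11. The first 3 were designed on the DKK3 mRNA NM_015881, at the transcript positions in their names, and the last 2 on U32331. The files list the coordinates of the first 3 in falling order and those of the last 2 in rising order, so these run on the opposite strand.
DKK3 mRNA, position 1774, chr11:11985469-11985528: tgcagatgaaatgttctgttcaccctgcat
DKK3 mRNA, position 2328, chr11:11984915-11984974: ggtaattgtagggcgaggattataaatgaa
DKK3 mRNA, position 2430, chr11:11984813-11984872: gtgtgaaacatggttgtaatatgcgactgc
U32331, position 217, chr11:11982594-11982653: ccagctttatcaataataatatcggtggtt
U32331, position 2037, chr11:11984417-11984476: tttgtcctttcagaaggccgtgaagcattt

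The mRNA probe at 2430 is the brightest and gave the values above. The probe at 2328 read -0.70 and -0.49 in GALNT3 KO, and 5.34 and 5.15 on the GALNT3/T6-labelled arrays. The probe at 1774 read -0.21 and 0.23 in GALNT3 KO, and 3.03 and 2.81 on the GALNT3/T6-labelled arrays. All 3 mRNA probes were therefore high on both arrays labelled GALNT3/T6 KO, while the lower level in GALNT3 KO was seen on both arrays with only 2 of the 3. The opposite-strand probe at 217 read between 0.15 and 0.26 over the 4 arrays, and the one at 2037 between -0.21 and -0.0044, where it was well above background in the KO channel on 1 array and in the Ctrl channel on 2. Averaging all 5 probes gave a group difference of 3.07 in place of 6.54.

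The signal of each channel shows where the DKK3 ratio came from. The normalized KO signal of the probe at 2430 was 8.97 and 8.59 (log2) on the GALNT3 KO arrays, and 17.08 and 16.54 on the GALNT3/T6-labelled arrays. The Ctrl signal was 10.26 and 9.92 on the GALNT3 KO arrays, and 11.81 and 11.35 on the others. The Ctrl channel, which is labelled as mock-transfected A2780s throughout, was thus 1.49 higher (log2) on the GALNT3/T6-labelled arrays. On the linear scale its gain was 1.72% of the gain in the KO channel. A set of 123 genes, DKK3 included, was at least 16-fold above Ctrl on both of these arrays. Of the 123, 118 had a Ctrl signal above that on the GALNT3 KO arrays, and the median gain of the set was 1.71 (log2). The set was picked by its ratios on these same arrays, and the share over all genes was not computed, so the count is a description. The DKK3 difference between the groups, 6.54, is the KO gain of 8.03 less the Ctrl gain of 1.49 (all log2). The cause of the higher Ctrl signal was not tested. The KO signal of DKK3 on the 2 GALNT3/T6-labelled arrays was taken from the scan at low gain and scaled up, whereas its Ctrl signal was read at high gain.

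**Figure D1:**
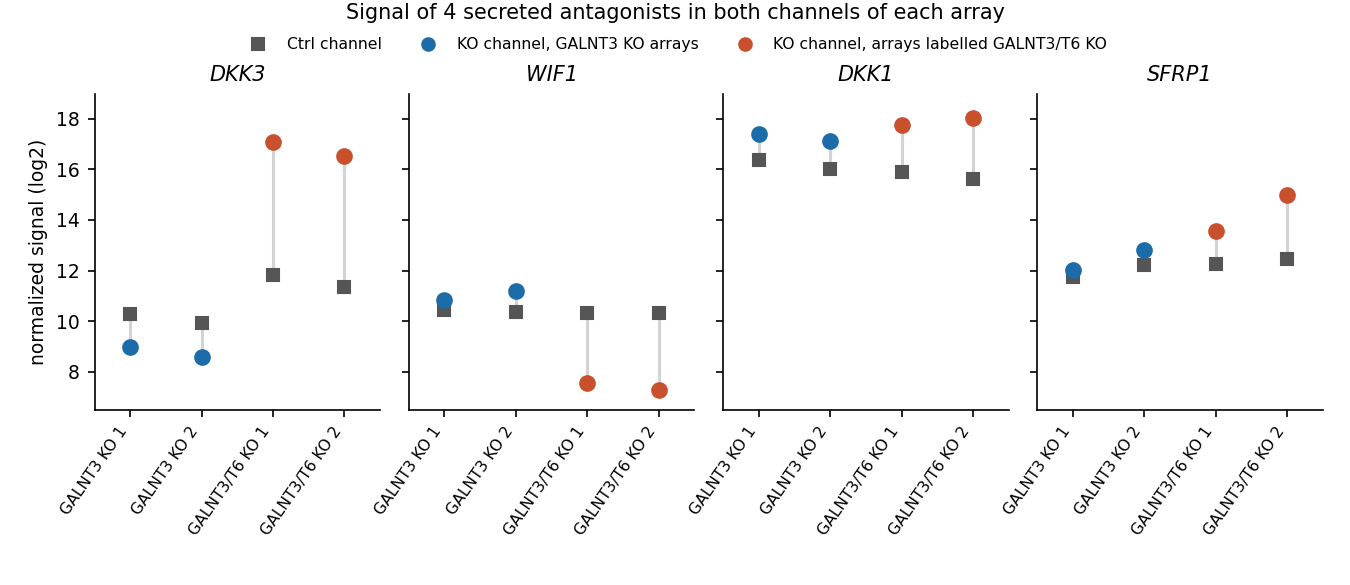
Normalized signal (log2, y axis) of DKK3, WIF1, DKK1 and SFRP1 on each of the 4 arrays (x axis), each on its brightest probe. Grey squares are the Ctrl channel, and circles are the KO channel in blue for GALNT3 KO and in red for the GALNT3/T6-labelled arrays. A grey line joins the channels of 1 array. The KO signal of DKK3 moves from 8.97 and 8.59 to 17.08 and 16.54, while WIF1 moves down in the KO channel and keeps a Ctrl signal between 10.32 and 10.43.

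DKK1, which blocks the LRP co-receptors and is itself a Wnt target, was higher than Ctrl on every array. It stood at 1.02 and 1.11 in GALNT3 KO, and at 1.86 and 2.43 on the GALNT3/T6-labelled arrays. The groups did not overlap. DKK1 rose in GALNT3 KO by 1.06 on the log2 scale (SE 0.16, adjusted p = 0.0317 from limma), or 2.09-fold. It rose by 2.14 (SE 0.16, adjusted p = 0.000776 from limma), or 4.42-fold, on the GALNT3/T6-labelled arrays. Its single probe was read from the low-gain scan in both channels on all 4 arrays, with Ctrl signals between 15.62 and 16.39 (log2). The GALNT3 KO call did not hold with Agilent's own log ratio (0.90, adjusted p = 0.0579 from limma) or with the replicate number as a block (1.06, adjusted p = 0.0855 from limma). Without either GALNT3 KO array the value stayed at 1.11 and 1.02, but no gene was called there with 1 array.

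Since DKK1 was above Ctrl on all 4 arrays, the 250 bases before its start are shown (RefSeq, GRCh38.p14, chr10:52314031-52314280, plus strand, 5′ to 3′). Capitals mark matches to the letters of the TCF/LEF recognition motif. These were searched on both strands as CTTTGAA, as its variant CTTTGAT, and with T in the sixth place as CTTTGTA or the variant CTTTGTT. The matches in this window do not overlap.
DKK1 upstream: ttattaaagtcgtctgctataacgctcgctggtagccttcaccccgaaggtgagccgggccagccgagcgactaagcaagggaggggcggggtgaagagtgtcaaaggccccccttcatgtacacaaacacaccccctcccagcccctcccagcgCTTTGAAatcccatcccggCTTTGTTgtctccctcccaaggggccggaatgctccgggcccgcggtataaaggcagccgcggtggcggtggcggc
The matches begin 95 and 76 bases before the start. Of 35116 windows of this length before RefSeq genes, 4199 (12%) hold at least 1 such match. Windows were found for 6 of the 10 members, 7 windows in all. Beside DKK1, 1 of the 2 TCF7 windows holds a match, and those of SFRP4, FRZB, WIF1 and LEF1 hold none of these letters. A match is a run of letters and was not tested for binding.

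SFRP1, a secreted decoy of the Frizzled ligand-binding domain, was above Ctrl on every array as well. It stood at 0.27 and 0.56 in GALNT3 KO, and at 1.30 and 2.54 on the GALNT3/T6-labelled arrays. The groups did not overlap, yet the GALNT3/T6-labelled arrays lay far apart from each other in this gene, with an SD of 0.87. SFRP1 rose on the GALNT3/T6-labelled arrays by 1.92 (SE 0.30, adjusted p = 0.0077 from limma), or 3.78-fold, and was not called in GALNT3 KO at 0.41 (adjusted p = 0.373 from limma). Its second probe, at position 3722, read -0.18 and 0.03 in GALNT3 KO, and 1.21 and 3.00 on the others, with the same array the higher. The rise kept its call under each of the 14 alternatives run for it, which are not all separate checks. The brightest probe alone repeats the main probe. Leaving out either GALNT3 KO array gave the same fit here as the spread of the group alone (adjusted p = 0.0470 from limma). The 14 do not include a test of each gene on its own spread, which called 1 gene on these arrays after adjustment and 0 as higher. SFRP1 was thus not called by that test after adjustment. The paper filtered genes at a p of at most 0.05 and at least 1.5-fold, and names no adjustment for this step. By that rule the same test passed 1451 genes as higher and 1688 as lower on these arrays. Whether SFRP1 was among them is not given here.

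SFRP4, of the same family, was a dim gene, and its Ctrl channel was not well above background on any array. It stood at 0.40 and 0.21 in GALNT3 KO, where the KO channel was above background on 1 array. On the GALNT3/T6-labelled arrays it stood at 0.42 and 1.12, with the KO channel above background on both. It was therefore at least 1.69-fold higher than Ctrl there, at normalized signals of 7.24 against 6.47 (log2), with an adjusted p of 0.0265 from limma that became 0.0910 with the spread of that group alone, and at 0.30 it was not called in GALNT3 KO (adjusted p = 0.294 from limma). SFRP4 passed the filter on dim probes through the GALNT3/T6-labelled arrays alone, so its p there is not independent of the filter. FRZB, another SFRP relative, stood at 0.07 and 0.31 in GALNT3 KO, and at 0.07 and 0.47 on the others. The groups overlapped, and FRZB was called in neither, at 0.19 (95% interval -0.17 to 0.54) and 0.27 (-0.08 to 0.62). Its second probe read between 0.07 and 0.40.

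WIF1, which binds Wnt proteins through its WIF domain, went the opposite way to DKK3. It stood at 0.39 and 0.82 in GALNT3 KO, and at -2.80 and -3.03 on the GALNT3/T6-labelled arrays. It was above Ctrl on both arrays of the first group and below Ctrl on both of the second. WIF1 fell on the GALNT3/T6-labelled arrays by 2.91 on the log2 scale (SE 0.14, adjusted p = 0.000264 from limma), a 7.54-fold lower level. In GALNT3 KO its mean of 0.61 was not called (adjusted p = 0.057 from limma). The group difference was -3.52 (SE 0.19), and it was given no test.

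The array holds 2 WIF1 probes, both to NM_007191 on chromosome 12 (hg19), and their sequences are shown because only the one near the end of the transcript carried the fall. The first 30 of 60 bases are given.
WIF1, position 598, chr12:65514202-65514261: agagaatgccagctattcctgtcaatatcc
WIF1, position 1852, chr12:65444732-65444791: aaattgggcaaaaatgcgtaagtcacaaga
The brighter probe at 1852 gave the values above. The probe at 598 read 0.19 and 0.45 in GALNT3 KO, and -0.23 and -0.07 on the GALNT3/T6-labelled arrays. Its mean on the latter was -0.15 (adjusted p = 0.286 from limma, fitted over the 38199 probes that passed the filter), so the call did not hold on this probe. Both probes were well above background in both channels on all 4 arrays. Calls over all probes made up 11.6% in GALNT3 KO and 48.9% on the GALNT3/T6-labelled arrays.

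Among the targets, AXIN2 is a feedback member of the β-catenin destruction complex and is widely used as a readout of canonical Wnt signaling. Its direction depended on the probe, and the 3 probes are shown for that reason (hg19, chromosome 17, first 30 of 60 bases). The probes at 580 and 3466 were designed on NM_004655, and the one at 3012 on AF078165.
AXIN2, position 580, chr17:63554388-63554447: ttcctggagagggagaaatgcgtggatacc
AXIN2, position 3012, chr17:63525644-63525701: ccatccccagtttatggatatgctgcttta
AXIN2, position 3466, chr17:63525389-63525448: ttttgtcttaaaggtcttgagggttgacca
The brightest probe, at 580, read 0.21 and 0.27 in GALNT3 KO, and 0.35 and 0.24 on the GALNT3/T6-labelled arrays. By this probe AXIN2 was called higher on the latter, at 0.30 (SE 0.08, adjusted p = 0.04 from limma), or 1.23-fold. The rise did not pass with Agilent's log ratio (0.08, adjusted p = 0.538 from limma), with median centring (0.24, adjusted p = 0.0973), and, at the same 0.30, with the spread of the group alone and with the replicate block (adjusted p = 0.104 in both). The probe at 3012 read -0.22 and -0.32, and then -0.41 and -0.43, and by it AXIN2 fell on the GALNT3/T6-labelled arrays (mean -0.42, adjusted p = 0.0141 from limma). The probe at 3466 read -0.65 and -0.65, and then -1.42 and -1.42, and by it AXIN2 fell in both groups (mean -0.65 at an adjusted p of 0.024 and -1.42 at 0.00034, both from limma). With the mean of the 3 probes AXIN2 stood at -0.23 and -0.51, the latter called as lower (adjusted p = 0.00514 from limma). No single direction of AXIN2 can be given from these arrays.

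LEF1 and TCF7 encode TCF/LEF transcription factors that are themselves induced by the pathway. LEF1 stood at 0.05 and 0.08 in GALNT3 KO, and at 0.01 and -0.01 on the GALNT3/T6-labelled arrays. It was called in neither group, with 95% intervals of -0.14 to 0.27 and -0.21 to 0.20, and its second probe read between -0.10 and 0.16. TCF7 stood at -0.45 and -0.35 in GALNT3 KO, and at -0.38 and 0.28 on the others. It was called in neither, with 95% intervals of -0.86 to 0.06 and -0.51 to 0.41, and the GALNT3/T6-labelled arrays lay on both sides of Ctrl. TCF7 is printed as 10 spots per array, which differed by an SD of 0.14 to 0.26 within an array. NKD1, which binds Dishevelled and damps the signal, stood at -0.18 and -0.21 in GALNT3 KO, and at -0.23 and -0.41 on the others. It fell on the GALNT3/T6-labelled arrays by 0.32 (SE 0.09, adjusted p = 0.0375 from limma), or 1.25-fold, and was not called in GALNT3 KO (adjusted p = 0.189 from limma). The second NKD1 probe was not well above background on any array. The fall of NKD1 kept its call under only 4 of the 12 alternatives run for it, which are not all separate checks. It did not hold with Agilent's log ratio (-0.09, adjusted p = 0.536 from limma) or with median centring (-0.32, adjusted p = 0.0611 from limma). At the same -0.32 it also did not hold with the spread of the group alone (adjusted p = 0.104 from limma) or with the replicate block (adjusted p = 0.085 from limma).

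Leaving out DKK3, 1 of 9 members was called higher in GALNT3 KO (DKK1) and 0 lower. An unadjusted p of at most 0.05 in limma was reached by 3 of the 9, and by 9678 of all 27198 genes. Over all genes tested, 11.2% were called in that comparison, 4.79% as higher and 6.44% as lower, so that 11.1% of the members is close to the background. On the GALNT3/T6-labelled arrays, 4 of 9 were called higher and 2 lower. The higher ones were DKK1 and SFRP1, SFRP4, which entered through these arrays, and AXIN2 on its brightest probe, and the lower ones were WIF1 and NKD1. With the mean of all probes, which turns AXIN2, 3 were called higher and 3 lower. Over all genes 47.9% were called there, 24.8% as higher and 23.1% as lower, against 66.7% of the members. The median log2 ratio of the 9 was 0.24 and 0.27, against 0.02 and 0.03 over all genes. With Agilent's log ratio the count in GALNT3 KO was 0, and on the GALNT3/T6-labelled arrays it was 4. Without either GALNT3 KO array the counts were 0 and 3, and without either GALNT3/T6-labelled array the count in GALNT3 KO was 5.

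The rest of the pathway was read from a list of 111 genes in 7 roles, of which 110 are named on the array and 108 passed the filter on dim probes. In GALNT3 KO 8 of the 108 rose and 8 fell (14.8%, against 11.2% of all genes), and on the GALNT3/T6-labelled arrays 22 rose and 36 fell (53.7%, against 47.9%). Both shares lie near the background. Between the groups 41 of the 108 were called (38%), 15 higher and 26 lower on the GALNT3/T6-labelled arrays, where 23.7% of all genes were called. The median of the list was 0.05 and -0.04 against Ctrl. The reference carries the same label, mock-transfected A2780s, in both comparisons, and values for both groups are set side by side.

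For ligands and their secretion, on the GALNT3/T6-labelled arrays 9 of 20 rose and 2 fell (55% called, against 47.9% of all genes). In GALNT3 KO 3 rose and 0 fell (15% called, against 11.2% of all genes). Over all genes 24.8% were called higher and 23.1% lower on the GALNT3/T6-labelled arrays, and 4.79% and 6.44% in GALNT3 KO. WNT5A, a ligand of the non-canonical branch, stood at 2.91 and 4.23 on the GALNT3/T6-labelled arrays (adjusted p = 0.00146 from limma), against 0.29 and -0.01 in GALNT3 KO. WLS, the carrier that takes Wnt proteins to the cell surface, stood at 3.14 and 3.38 there (adjusted p = 0.000106 from limma). On GALNT3 KO replicate 1 neither channel was well above background for WLS. WLS therefore passed the filter on dim probes through the GALNT3/T6-labelled arrays alone, and its p there is not independent of the filter. WNT10A rose by 1.68 on the GALNT3/T6-labelled arrays. WNT11 moved in the other group, with 2.03 and 1.89 in GALNT3 KO (adjusted p = 0.0056 from limma) against -0.22 and -0.09. The second WNT11 probe gave a mean of 0.22 in GALNT3 KO and was not called.

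Of the 16 receptors, 3 rose and 7 fell on the GALNT3/T6-labelled arrays (62.5% called, against 47.9% of all genes). In GALNT3 KO 1 rose and 3 fell (25% called, against 11.2% of all genes). FZD7 was lower on every array, at -2.52 and -2.54 in GALNT3 KO and at -4.46 and -4.26 on the others. FZD8 was near Ctrl in GALNT3 KO (-0.04 and -0.07) and at -4.31 and -4.55 on the GALNT3/T6-labelled arrays. FZD6, which is linked to the planar polarity branch, rose there by 2.78, and the co-receptor LRP6 fell by 1.74 on its brighter probe. The other LRP6 probe stood at -0.15 and was not called.

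Of the 11 remaining antagonists, 2 rose and 0 fell in GALNT3 KO (18.2% called, against 11.2% of all genes). At an unadjusted p of at most 0.05 in limma 6 were higher and 0 lower, a cut that 9678 of all 27198 genes passed there. SOSTDC1, which binds LRP6, stood at 1.51 and 1.48 in GALNT3 KO (adjusted p = 0.0117 from limma) and at -1.49 and -1.82 on the GALNT3/T6-labelled arrays (adjusted p = 0.00062 from limma). As with WIF1, it was above Ctrl in 1 group and below Ctrl in the other. SOST, its close relative, rose by 0.45 in GALNT3 KO. KREMEN2, a receptor for DKK1, fell by 2.07 on the GALNT3/T6-labelled arrays. There 0 of the 11 rose and 2 fell (18.2% called, against 47.9% of all genes). At an unadjusted p of at most 0.05 in limma 3 were higher and 3 lower, a cut that 15412 of all 27198 genes passed there. In the R-spondin axis, which raises the level of Frizzled at the surface, 1 of 8 rose and 2 fell there (37.5% called, against 47.9%). RSPO2 was at least 2.14-fold higher than Ctrl in GALNT3 KO (adjusted p = 0.013 from limma), with Ctrl not well above background. RSPO2 passed the filter on dim probes through the GALNT3 KO arrays alone, so its p is not independent of the filter. The receptor LGR4 fell by 1.25 on its brighter probe (the other stood at -0.27 and was not called) and the ubiquitin ligase ZNRF3 by 1.56 on the GALNT3/T6-labelled arrays, while RNF43, a ligase of the same kind, rose by 1.16.

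Among genes of the wider list that act inside the cell, every call against Ctrl in either group was a lower level. The genes called on the GALNT3/T6-labelled arrays were not all below Ctrl in GALNT3 KO. Of 20 cytoplasmic transducers, 0 rose and 12 fell on the GALNT3/T6-labelled arrays, and of 13 nuclear factors 0 rose and 5 fell. Called genes thus made up 60% and 38.5% of these roles, against 47.9% of all genes, of which 24.8% were higher and 23.1% lower. At an unadjusted p of at most 0.05 in limma 1 transducer was higher there and 15 lower, and 0 nuclear factors were higher and 7 lower. That cut was passed there by 15412 of all 27198 genes. In GALNT3 KO 2 transducers fell (10% called) and 0 nuclear factors were called, against 11.2% of all genes. At an unadjusted p of at most 0.05 in limma 0 transducers were higher and 8 lower, and 4 nuclear factors higher and 1 lower. That cut was passed in GALNT3 KO by 9678 of all 27198 genes. APC2, a relative of the APC scaffold, fell in GALNT3 KO by 1.03 and on the GALNT3/T6-labelled arrays by 3.08, although 1 of its 4 probes stood near 0 in both. The kinases GSK3A and CSNK1E fell on the latter by 2.01 and 1.92, and FRAT2, a GSK3-binding protein, by 1.84. The repressors TLE2, TCF7L1 and TLE4 fell by 2.27, 2.20 and 1.39, and the coactivator BCL9 by 1.29. CTNNB1, which encodes β-catenin and was chosen for mention after its values were seen, stood at -1.57 and -0.70 there (adjusted p = 0.014 from limma), against -0.14 and -0.31 in GALNT3 KO.

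Among 20 other genes known as transcriptional targets of the pathway, 9 rose and 6 fell on the GALNT3/T6-labelled arrays (75% called, against 47.9% of all genes). In GALNT3 KO 1 rose and 2 fell (15% called, against 11.2% of all genes). CD44, an adhesion receptor, rose by 5.46, the AP-1 subunit JUN by 4.25 and the growth factor BMP4 by 3.32 on the GALNT3/T6-labelled arrays. On the GALNT3 KO arrays neither channel was well above background for BMP4. BMP4 passed the filter on dim probes through the GALNT3/T6-labelled arrays alone, so its call there is not independent of the filter. TNFRSF19 fell in both groups, by 1.59 in GALNT3 KO and by 3.93 on the others. The targets therefore had called members in both directions, as had the 10 genes described first.

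**Figure D2:**
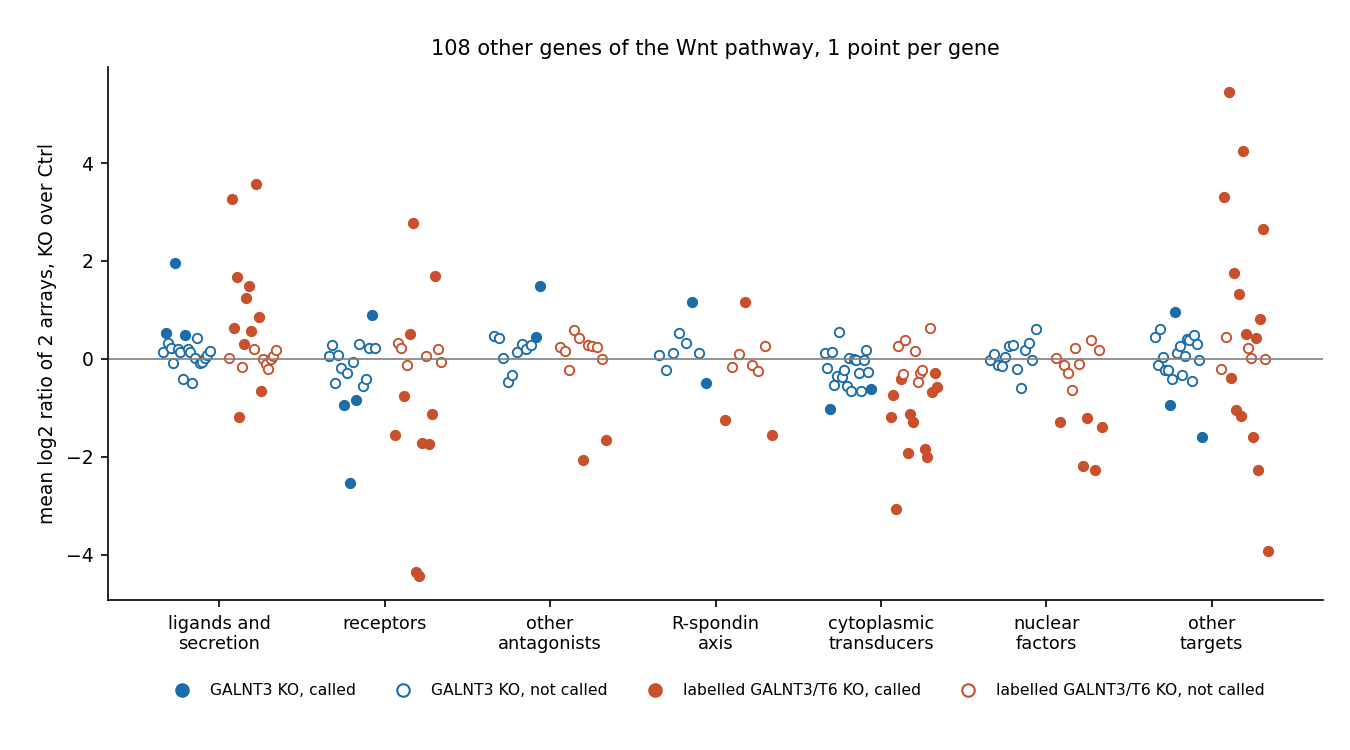
Mean log2 ratio of KO over Ctrl (y axis) for the 108 other genes of the pathway, 1 point per gene and group, by role (x axis). Blue is GALNT3 KO and red the GALNT3/T6-labelled arrays, and filled points were called at an adjusted p of at most 0.05. Filled red points lie on both sides of 0 for ligands, receptors, the R-spondin axis and targets, and below 0 for the transducers and nuclear factors, where 12 and 5 were called lower and 0 higher. RSPO2 in GALNT3 KO is known only as a bound, since its Ctrl channel was not well above background.

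The genes whose ratios lay nearest to those of DKK3 over the 4 arrays, by Euclidean distance of the log2 ratios among 27198 genes, were AQP11 (1.16), PAPSS2 (1.42), PMP22 (1.53), PDE4DIP (1.62) and AMIGO2 (1.70). AQP11 read -0.75 and -0.74 in GALNT3 KO and 4.82 and 4.49 on the GALNT3/T6-labelled arrays. PAPSS2 read -1.60 and -1.35, and then 3.88 and 5.16. Of these 5, none is a member of the pathway lists used here. With 4 arrays in 2 groups, likeness here means a low ratio in the first group and a high one in the second.

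Among the named genes of the wider list with GALNT3 and GALNT6, 26 were called against Ctrl on the GALNT3/T6-labelled arrays. All 26 calls held under each of the 12 alternatives run for them, which are not all separate checks. Leaving out either GALNT3 KO array gave the same fit here as the spread of the group alone. The deposited table nearly repeats Agilent's log ratio. These include neither the crossed replicate block nor the test of each gene on its own spread, which called 1 gene on these arrays after adjustment. Of the 10 calls of these genes in GALNT3 KO, 0 held under all 12 alternatives. Those of WNT11, FZD7 and TNFRSF19 held under 10, SOSTDC1 and APC2 under 9, and RSPO2 under 8. WLS, SOST, ZNRF3 and GALNT6 held under 6. For each gene 2 of the 12 left 1 GALNT3 KO array, and these 2 say nothing of a single gene. Leaving out either GALNT3/T6-labelled array gave the same GALNT3 KO fit as the spread of the GALNT3 KO group alone. Among the named genes with several probes, 8 were called on the GALNT3/T6-labelled arrays, and for 5 of these every other probe was called in the same direction.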

How the data were processed

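RNA of 4 KO clones was measured on Agilent whole human genome 2-color arrays. The authors deposited scanner intensities from Agilent Feature Extraction (version 8.5.1.1 in the submitters' processing notes, 10.7.3.1 in the file headers) and a table of log10 ratios of KO over Ctrl, which lay within 0.005 of the scanner's own log ratio at the 173062 spots compared. Probe coordinates are those of the files (hg19). From the mean and background intensities, normexp (offset 50) and loess within each array were run in limma 3.58.1 (R 4.3.3), with control and outlier spots left out of the fit. Spots of 1 probe were averaged, and each gene stands on the brightest of its probes that had a channel well above background on both arrays of a group. limma fitted the 4 arrays in 1 model with a mean per group. Ratios were tested against 0, which leaves out the spread of the Ctrl itself, and wider-list genes between groups as well, with Benjamini-Hochberg adjustment over all 27198 genes. The script was tested on simulated data. Bounds set the bright channel against the higher of the array's floor and the dim signal, after loess and Aquantile, and are open to dye bias.

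The members and all gene lists were chosen with earlier results of these data known. Named genes are the 10 members, in each role of the wider list the called genes up to the 4 largest in either group, the 5 genes nearest to DKK3, GALNT3 and GALNT6. WNT16, CER1 and RSPO4 were not tested, and TLE5 is AES in the files. The number of arrays limits the precision. Replicate numbers do not establish pairs: the correlation of the replicate differences between the groups was -0.24. Alternatives changed the background correction, dye normalization, filter, probe rule, source of values, spread, replicate block and arrays used.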

Additional observations from a re-analysis of the deposited data

Results flagged for a closer look

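Of the 10 members, 2 lay on opposite sides of Ctrl in the groups on every array. The share of all genes that did so is not given here, and DKK3 chose the list, so the count is a description. DKK3 was below Ctrl in GALNT3 KO and above it on the GALNT3/T6-labelled arrays, with a difference of 6.54 (log2), and WIF1 ran the other way, with -3.52. Neither difference was tested, since the members were chosen on that of DKK3. WIF1 was not called against Ctrl in GALNT3 KO. On its other probe, WIF1 differed by -0.47.

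Of the 27 named genes of the wider list, 25 differed between the groups by limma's test of the difference, against 23.7% of all genes. The genes were named for the size of a ratio in these same arrays, so the count is a description and supports nothing. On the GALNT3/T6-labelled arrays the ligand and secretion genes WNT5A (3.43), WLS (2.73) and WNT10A (1.46) were higher than in GALNT3 KO, and WNT11 (-2.12) was lower. FZD6 was higher by 3.07, while the receptors FZD8 (-4.38), FZD7 (-1.83) and LRP6 (-1.18) were lower. Among antagonists and the R-spondin axis SOSTDC1 (-3.15), KREMEN2 (-2.21), LGR4 (-1.33) and ZNRF3 (-1.06) were lower. The transducers APC2 (-2.05), FRAT2 (-1.55), CSNK1E (-1.54) and GSK3A (-1.36) were lower, as were the nuclear factors TLE2 (-2.58), TLE4 (-2.0), TCF7L1 (-2.0) and BCL9 (-1.40). Of the targets, CD44 (5.41) and JUN (4.12) were higher and TNFRSF19 (-2.34) was lower. For RSPO2 (-1.40) neither channel was well above background on the GALNT3/T6-labelled arrays, and for BMP4 (3.45) neither was on the GALNT3 KO arrays, so that these values set a measured ratio against one that was not measured. Of the 26 differences of named genes and GALNT3, 13 held under each of the 11 alternatives run for them. Of these alternatives, the deposited table nearly repeats Agilent's log ratio. The 11 include neither the crossed replicate block nor a t-test.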

How the results depend on the processing

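The GALNT3 KO calls depended on the spread used and on the source of the values. Over all genes the main count was 3053, of which 42.6% were higher. The count was 590 with Agilent's log ratio, 586 with the deposited table and 9443 with the spread of that group alone. With a t-test it was 0 after adjustment (3994 at an unadjusted p of at most 0.05). With median centring 23.5% of the calls were higher, and in the wider list 28.6% in place of 50%. The counts over the 9 members were 0, 0 and 5 in the first 3 of these settings, and those over the wider list were 7, 7 and 47, against 1 and 16. On the GALNT3/T6-labelled arrays the count over all genes, 13020, became 8273 with the spread of that group alone and 1 with the t-test (5689 unadjusted), and that of the members 3 in place of 6. Leaving out 1 array at a time gave 0 to 9443, 8273 to 12925 and, between the groups, 1206 to 8926 genes. It gave 0 to 5 and 3 to 6 members, and 0 to 47 wider-list genes in GALNT3 KO and 15 to 55 between the groups, with no call in GALNT3 KO without either of its arrays, which says nothing of single genes. A lone array was assumed to vary like the other group.

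The replicate numbers give no pairing. With the number as a block 82 genes, 0 members and 3 wider-list genes were called in GALNT3 KO, and 10094, 4 and 52 on the GALNT3/T6-labelled arrays. With the pairing crossed, chosen after seeing the data, 3681 genes and 2 members were called in GALNT3 KO and 13545 and 6 on the others.

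The DKK3 difference of 6.54 became 6.70 with Agilent's log ratio, 6.69 with the deposited table, 6.47 with median centring and 3.07 with the mean of all probes, and 6.51 to 6.58 without 1 array. AXIN2 turned to -0.23 and -0.51 (GALNT3 KO first) with the mean of all probes, -0.27 and -0.42 on the probe at 3012, and -0.65 and -1.42 on that at 3466. Values near 0 turned as well. LEF1 on the GALNT3/T6-labelled arrays stood at 0.025 with no background correction, 0.029 with median centring, 0.075 with the mean of all probes, -0.011 without replicate 1, 0.011 without replicate 2 and 0.15 on its second probe. In GALNT3 KO it stood at -0.20 with Agilent's log ratio and with the deposited table, and at -0.0096 on its second probe. NKD1 in GALNT3 KO stood at 0.15 with either of these sources, and SFRP1 in GALNT3 KO at -0.078 on its second probe. TCF7 on the GALNT3/T6-labelled arrays turned to 0.28 without replicate 1 and kept its sign without replicate 2, at -0.38. The causes were not tested. Dim signal limits SFRP4, RSPO2, WLS and BMP4.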
